A study of Mus musculus with 12 samples.

Results

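The genes described here are 39 genes of the cellular response to low oxygen and of glycolysis, measured by RNA sequencing in KP cells, a mouse lung adenocarcinoma line. They are Hif1a, 17 genes known as targets of hypoxia-inducible factor (HIF) and 21 genes of glycolysis from glucose uptake to lactate export, taken from a list of symbols and kept where at least 3 of the 12 libraries held 10 or more counts. All 39 met that rule, as did 13312 of the 24421 gene symbols in all. Every library came from the same line, and the floxed Trp53 alleles its labels give (Trp53flox/flox) are shared by all groups. Cells with a control guide RNA (sgCTRL, called control cells) or with a guide against Bach1 (sgBACH1, a CRISPR/Cas9 knockout, called knockout cells) were transfected for 48 hours with a control siRNA (siCTRL) or with siRNAs against Fem1b (siFEM1B). The 4 groups had 3 libraries each, called biological replicates in the design text. Only 1 control line and 1 knockout line are named, so line and genotype cannot be told apart. All cells were grown in serum-containing medium with antibiotics in a humidified incubator, and the labels name no low-oxygen treatment.

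HIF is a transcription factor made of an oxygen-labile alpha subunit, such as the product of Hif1a, and a stable partner. With oxygen present, prolyl hydroxylases (the Egln genes) mark the alpha subunit for destruction, and with little oxygen it accumulates and raises genes of glycolysis, vessel growth, collagen modification and mitochondrial turnover. Glycolysis splits glucose into pyruvate, which lactate dehydrogenase turns to lactate, and many of its genes are HIF targets too. BACH1 is a heme-binding transcriptional repressor, described in lung cancer as an activator of Hk2 and Gapdh. FEM1B brings proteins to the CUL2 ubiquitin ligase for degradation, and the study asked how losing either protein affects gene programs related to ferroptosis.

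Libraries held 16539168 to 22196999 counts in total. Levels are given as CPM, which scales counts to the library total times its TMM factor, and a single count equalled 0.0446 to 0.0603 CPM. Fem1b measured 157, 167 and 164 CPM in sgCTRL_siCTRL, 43.0, 57.9 and 54.2 in sgCTRL_siFEM1B, 140.5, 136 and 141 in sgBACH1_siCTRL and 46.2, 54.4 and 46.4 in sgBACH1_siFEM1B, so every library with its siRNA lay below every library without it. Bach1 transcript did not separate the genotypes under control siRNA (31.4 ± 2.04 CPM in control and 29.5 ± 1.72 CPM in knockout cells, SD, n = 3), and since a guide-induced lesion need not lower the transcript, that level checks nothing. With FEM1B siRNA Bach1 was higher, at 41.3 ± 3.25 CPM in control and 39.9 ± 0.60 CPM in knockout cells. In neither genotype did these libraries overlap those with control siRNA. All 7 epithelial markers passed the count filter and summed to 7080 to 9379 CPM, but single ones differed between the groups. In the order sgCTRL_siCTRL, sgCTRL_siFEM1B, sgBACH1_siCTRL and sgBACH1_siFEM1B, mean CPM was 1733, 1438, 446 and 585 for Krt7, 321, 399.9, 645 and 615 for Cdh1, and 1.53 or less for Epcam in every group. Of the lung lineage markers Nkx2-1 and Sftpa1 were at 0 in all libraries, and only Foxa1 and Foxa2 passed the filter. In the same order of groups, the 6 fibroblast markers (3 passed the filter) summed to 23.2 to 25.0, 18.3 to 21.6, 8.58 to 10.7 and 9.55 to 11.2 CPM, nearly all of it Col1a1. The 7 leukocyte markers (2 passed) summed to 41.8 to 46.5, 52.3 to 63.7, 26.4 to 30.4 and 39.3 to 45.7 CPM, nearly all of it Cd14 and Cd68, with Cd3e and Adgre1 at 0 in all libraries and Cd68 at 8.2, 24.6, 5.57 and 9.45 CPM. Endothelial markers summed to 2.14 CPM or less. Some of these levels moved with genotype or siRNA, and their part in the results was not tested.

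Before the comparisons, 3 libraries need naming, because the HIF targets moved together within groups. Replicate 2 of sgBACH1_siFEM1B was the highest of its group for 17 of 17 HIF targets and for 20 of 21 glycolysis genes. In sgCTRL_siFEM1B, replicate 1 was the lowest for 16 of 17 HIF targets and replicate 3 the highest for 14 of 17. On the log2 scale against the mean of sgCTRL_siCTRL, the median of the HIF targets was 0.28, 0.45 and 0.52 in the sgCTRL_siFEM1B libraries, 0.27, 0.21 and 0.26 in sgBACH1_siCTRL, and 0.10, 0.47 and 0.09 in sgBACH1_siFEM1B. The glycolysis medians were 0.06, 0.12 and 0.30, then 0.22, 0.23 and 0.21, then 0.06, 0.22 and 0.07 in the same order. The counts for groups with FEM1B siRNA are therefore given with and without these libraries. Ranks were not counted over all genes, so they do not show a trait particular to these lists. What set these libraries apart was not tested.

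**Figure D1:**
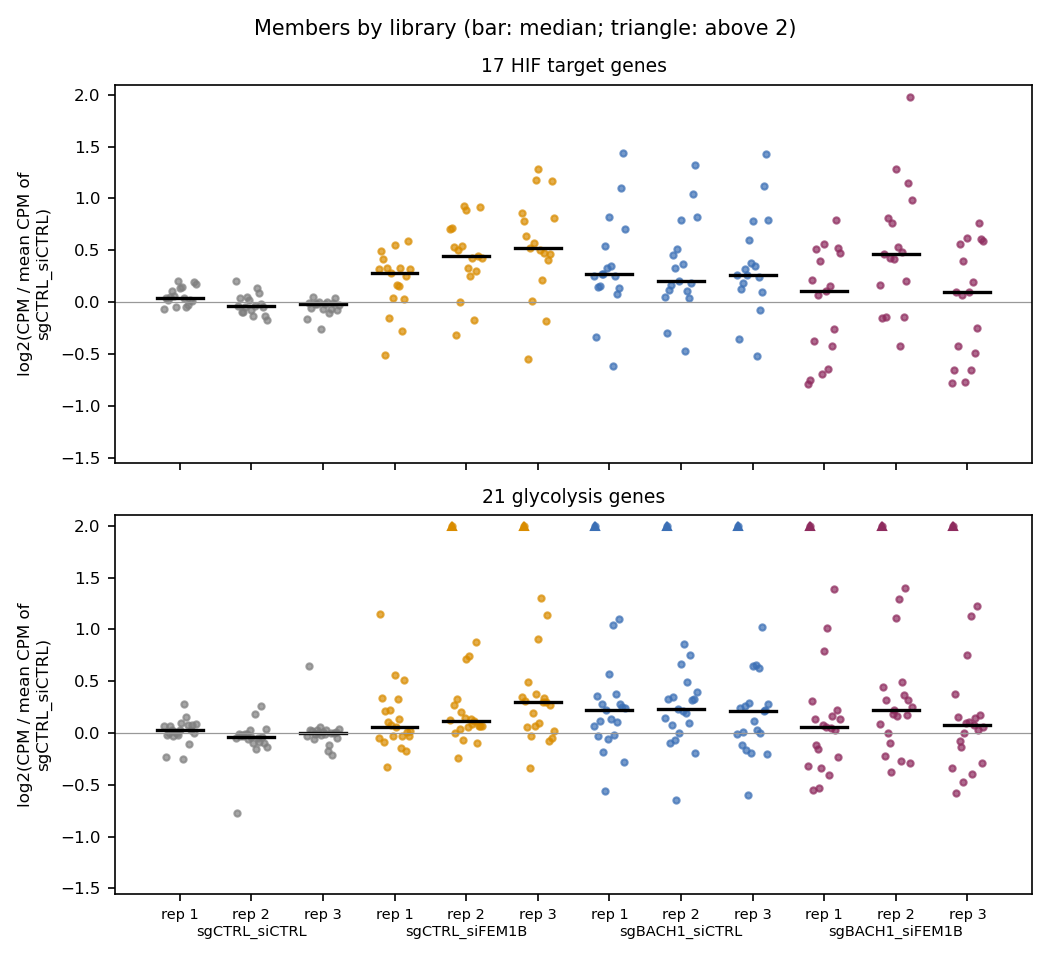
Each point is 1 gene in 1 library, as log2 of its CPM over its mean CPM in the 3 sgCTRL_siCTRL libraries (vertical axis); libraries are on the horizontal axis, colours are the 4 groups, bars are medians over the 17 HIF targets (top) or 21 glycolysis genes (bottom), and triangles lie above 2. Replicate 2 of sgBACH1_siFEM1B has an HIF target median of 0.47, against 0.10 and 0.09 in the other libraries of its group.

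HIF binds a short DNA core, and the promoter sequences of a few members are shown because genes that hold it moved in different directions here. The core was searched as ACGTG or GCGTG on both strands in the RefSeq promoter windows of GRCm38.p6, 250 bases before to 50 bases after each gene start. The palindrome CACGTG, also known as a site of MYC-family factors, holds ACGTG on both strands and counts for each. Of the HIF targets with an entry, 14 of 14 held the core in at least 1 window, as did 17 of 20 glycolysis genes (85%) and 46.7% of 27025 genes in the table. Counted by window, the shares were 71.4% of 21, 78.1% of 32 and 43.8% of 32851. Ndrg1, Bnip3l, Plod2 and Slc2a3 had no entry. The stretches below lie before the gene start on the gene's own strand, 5′ to 3′, with the core in capitals; these genes were chosen after their values were seen.
Pdk1 (chr2:71872974-71873223, plus strand): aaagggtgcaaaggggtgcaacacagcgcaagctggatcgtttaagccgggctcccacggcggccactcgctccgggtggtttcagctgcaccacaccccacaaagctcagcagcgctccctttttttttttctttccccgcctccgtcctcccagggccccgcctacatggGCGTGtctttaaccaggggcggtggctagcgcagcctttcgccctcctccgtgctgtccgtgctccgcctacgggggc
P4ha1 (chr10:59323046-59323295, plus strand): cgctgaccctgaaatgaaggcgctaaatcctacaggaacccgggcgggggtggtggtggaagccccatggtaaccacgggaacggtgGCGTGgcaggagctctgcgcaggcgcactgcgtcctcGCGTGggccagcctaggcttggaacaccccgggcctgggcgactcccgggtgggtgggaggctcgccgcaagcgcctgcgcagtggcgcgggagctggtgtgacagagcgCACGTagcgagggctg
Bnip3 (chr7:138909520-138909756, minus strand): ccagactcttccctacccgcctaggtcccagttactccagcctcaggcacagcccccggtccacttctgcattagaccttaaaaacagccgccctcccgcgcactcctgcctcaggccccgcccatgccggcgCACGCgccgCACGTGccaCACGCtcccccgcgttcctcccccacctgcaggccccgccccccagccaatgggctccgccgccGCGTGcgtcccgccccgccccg
Adm (chr7:110627407-110627656, plus strand): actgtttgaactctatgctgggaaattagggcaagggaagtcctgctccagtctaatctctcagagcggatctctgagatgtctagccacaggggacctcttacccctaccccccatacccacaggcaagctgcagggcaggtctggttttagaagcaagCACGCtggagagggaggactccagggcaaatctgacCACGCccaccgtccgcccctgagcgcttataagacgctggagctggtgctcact
Egln3 (chr12:54203875-54204124, minus strand): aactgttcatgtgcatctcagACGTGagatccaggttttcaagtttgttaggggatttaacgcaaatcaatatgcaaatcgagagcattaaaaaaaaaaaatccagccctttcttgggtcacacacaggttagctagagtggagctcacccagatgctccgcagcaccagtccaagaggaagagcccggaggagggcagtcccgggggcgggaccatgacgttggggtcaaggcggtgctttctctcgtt
Pgk1 (chrX:106186850-106187099, plus strand): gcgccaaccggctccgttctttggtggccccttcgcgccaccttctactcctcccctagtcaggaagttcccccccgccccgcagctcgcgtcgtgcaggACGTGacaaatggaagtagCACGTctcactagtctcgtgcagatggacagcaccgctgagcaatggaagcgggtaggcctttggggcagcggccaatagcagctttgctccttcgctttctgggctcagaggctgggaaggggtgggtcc
Pdk1 and P4ha1 were lower with FEM1B siRNA in both genotypes, and Bnip3 was higher in both. Adm was higher in knockout cells under control siRNA and with FEM1B siRNA in control cells. Egln3 was lower in knockout cells under both siRNAs, and Pgk1 was lower with FEM1B siRNA in knockout cells. A match to these letters is a description of the sequence and not a binding site.

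In control cells, FEM1B siRNA raised most of the HIF targets and fewer of the glycolysis genes. A gene was called at an adjusted p under 0.05 in edgeR's quasi-likelihood test with Benjamini-Hochberg adjustment over 13281 genes, and all adjusted p-values below come from that two-sided test. Of the 17 HIF targets 14 rose and 2 fell (median log2 fold change 0.45), and of the 21 glycolysis genes 7 rose and 1 fell (median 0.14). The 7 include Slc2a3, which passed the count filter only through the changed groups. Over all genes tested the median was 0, and 45% were called, 22.1% higher and 22.9% lower. Without replicate 1 of sgCTRL_siFEM1B the counts were 14 and 1 for the HIF targets and 11 and 1 for glycolysis, with 42.3% of all genes called. Without its replicate 3 they were 12 and 2, and 7 and 1, with 39.1% of all genes called.

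In knockout cells fewer of the HIF targets rose with FEM1B siRNA than in control cells. There 1 HIF target rose and 3 fell (median -0.09), and 4 glycolysis genes rose and 6 fell (median -0.03), where 41.7% of all genes were called, 21.9% higher and 19.8% lower, with a median of 0.02. Without replicate 2 of sgBACH1_siFEM1B, 10 HIF targets fell and 1 rose (median -0.25), and 8 glycolysis genes fell and 1 rose. In that setting 39.7% of all genes were called. Without replicate 3 of that group 2 HIF targets rose and 2 fell, where 36.1% of all genes were called.

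The difference itself was tested as the siRNA effect of knockout cells less that of control cells, and this test called 9 HIF targets and 2 glycolysis genes lower and none higher. All 17 HIF targets and 19 of 21 glycolysis genes had a difference below 0, with medians of -0.48 and -0.21, against 0.02 over all genes. Of all genes 6.08% were called in this test, 3.48% higher and 2.6% lower (462 and 345 genes). With DESeq2 size factors that split was 369 higher and 441 lower, and with chromosome medians removed 381 and 430. Without replicate 2 of sgBACH1_siFEM1B, 14 HIF targets, 7 glycolysis genes and 13.8% of all genes were called. Without replicate 1 of sgCTRL_siFEM1B the numbers were 11, 6 and 7.11%, and without its replicate 3 they were 7, 4 and 7.46%. The HIF target count was 4 without replicate 3 of sgCTRL_siCTRL, and 3 without any of replicates 1 and 3 of sgBACH1_siCTRL, replicate 2 of sgCTRL_siFEM1B and replicates 1 and 3 of sgBACH1_siFEM1B, where 2.21% to 2.95% of all genes were called. The genes Ero1l, Ndrg1, Plod2 and Pgk1 kept their calls without any single library.

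**Figure D2:**
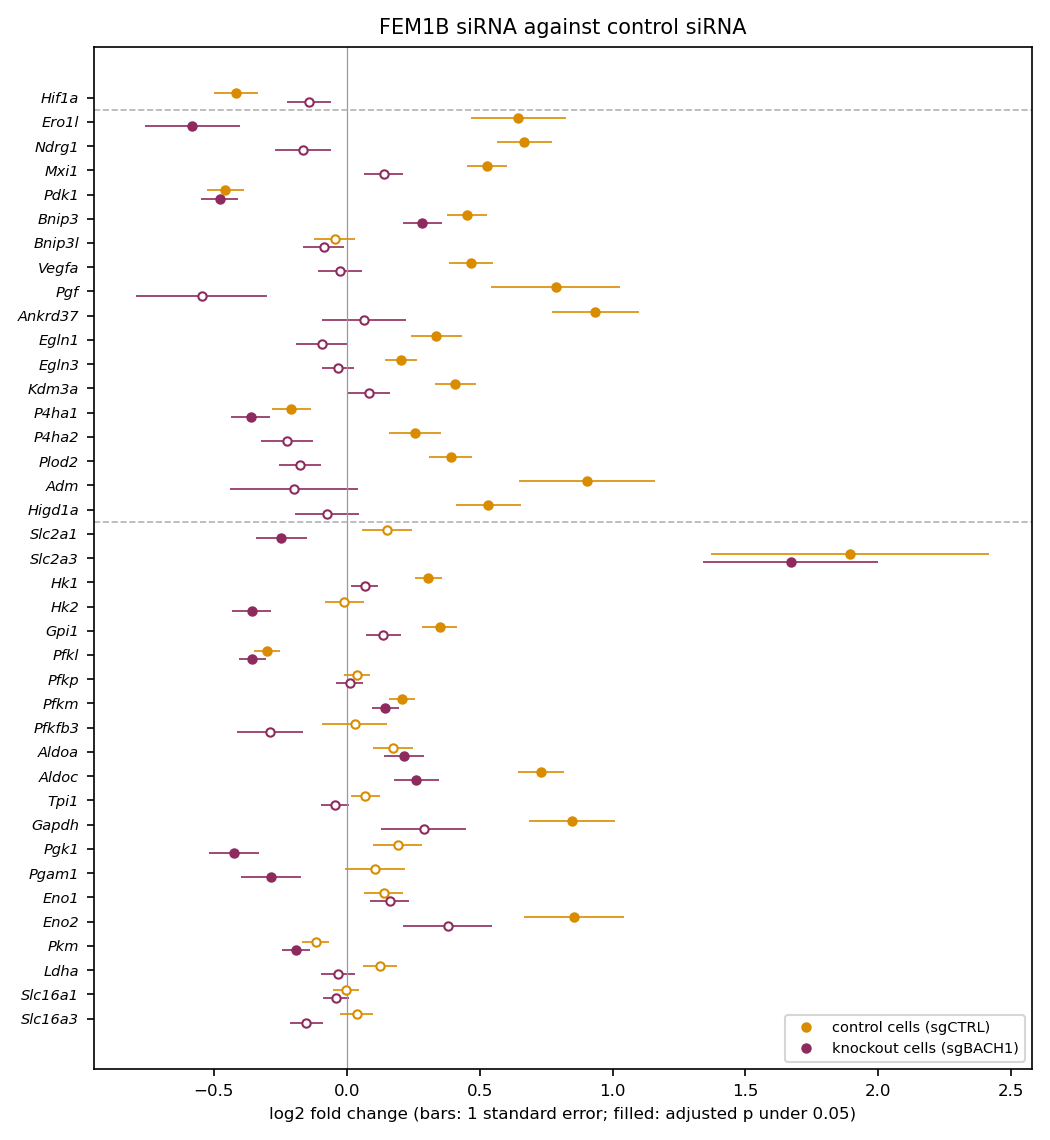
Log2 fold change of FEM1B siRNA against control siRNA (horizontal axis) for the 39 genes (vertical axis; Hif1a, then HIF targets, then glycolysis in pathway order), in control cells (orange) and knockout cells (purple). Bars are 1 standard error and filled points have an adjusted p under 0.05. For Ero1l the points lie at 0.64 and -0.58, while for Pdk1 they lie at -0.46 and -0.48. Slc2a3 passed the count filter only through the changed groups, and its point in control cells is not read as a result.

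The genotype comparisons use the same 4 groups and share libraries with those above. Since 1 line of each genotype is named, every rise or fall given with the knockout is a difference between these lines. The glycolysis counts include Slc2a3, which passed the count filter only through the changed groups. Under control siRNA 10 HIF targets were higher and 2 lower in knockout cells (median 0.29), and 11 glycolysis genes were higher and 3 lower (median 0.25), where 50.5% of all genes were called, 24.2% higher and 26.3% lower. Under FEM1B siRNA 3 HIF targets were higher and 6 lower (median -0.08), and 4 glycolysis genes were higher and 6 lower (median 0.07), where 54.6% of all genes were called, 28.2% higher and 26.4% lower. Without replicate 2 of sgBACH1_siFEM1B the HIF targets under FEM1B siRNA were 1 higher and 11 lower (median -0.25) and the glycolysis genes 4 higher and 7 lower. Without replicate 1 of sgCTRL_siFEM1B they were 1 higher and 6 lower, and 3 higher and 7 lower. Without its replicate 3 they were 4 higher and 6 lower, and 8 higher and 6 lower. Of all genes 53.3%, 49.5% and 54.3% were called in these omissions, in the same order. Genes of some chromosomes were offset together between the lines: under control siRNA medians were 0.44 (chromosome 19), 0.27 (chromosome 9), 0.24 (chromosome 14) and -0.28 (chromosome 12). The part of these offsets in the genotype results was tested only by removing each chromosome's median, and values that this moved by over 1.5 times, or whose call it ended, are given with the genes.

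**Figure D3:**
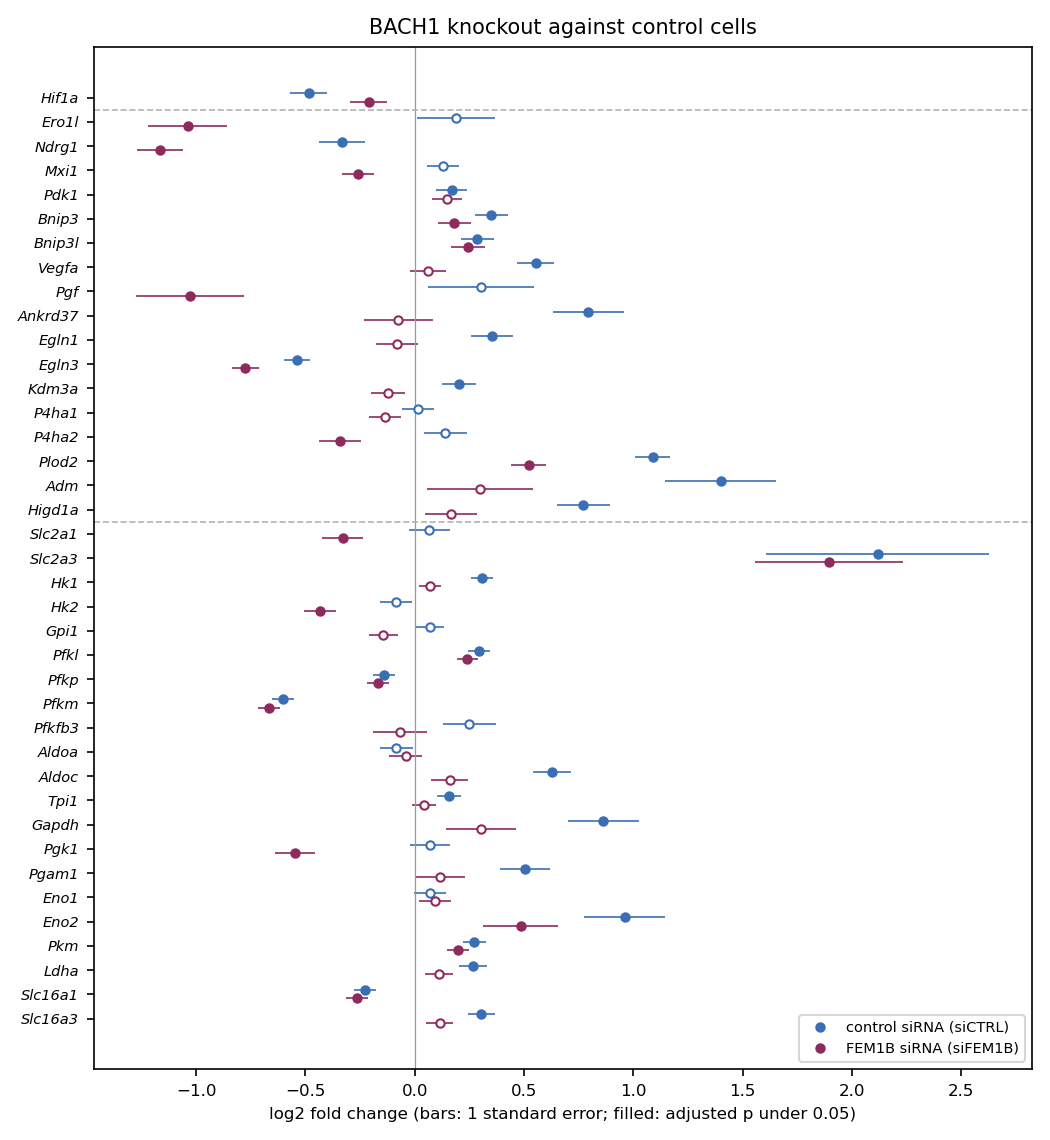
Log2 fold change between genotypes, knockout over control (horizontal axis), for the 39 genes (vertical axis), under control siRNA (blue) and FEM1B siRNA (purple). Bars are 1 standard error and filled points have an adjusted p under 0.05. Ndrg1 lies at -0.33 and -1.16 and Plod2 at 1.09 and 0.52. Slc2a3 passed the count filter only through the changed groups, and its points are not read as results.

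Hif1a (chromosome 12), which encodes the HIF alpha subunit, measured 672, 756 and 742 CPM in sgCTRL_siCTRL, 591, 598 and 436 in sgCTRL_siFEM1B, 537, 508 and 506 in sgBACH1_siCTRL and 467, 456 and 482 in sgBACH1_siFEM1B. All 9 libraries with either change or both lay below the 3 unchanged ones. Its log2 fold change was -0.48 (SE 0.084, adjusted p = 6.82e-05) in knockout cells under control siRNA and -0.42 (SE 0.083, adjusted p = 0.000414) with FEM1B siRNA in control cells, so the transcript fell while most HIF targets rose. In knockout cells FEM1B siRNA gave -0.14 (SE 0.084, adjusted p = 0.183), and the difference of the siRNA effects was 0.27 (SE 0.12, adjusted p = 0.167), neither called. Under FEM1B siRNA the genotypes differed by -0.21 (SE 0.084, adjusted p = 0.0393), a call lost by Hif1a without either of replicates 1 and 2 of sgCTRL_siFEM1B or any replicate of sgBACH1_siFEM1B (-0.36 to -0.13 over all single omissions, adjusted p up to 0.225) and with chromosome medians removed (0.04, adjusted p = 0.736). With those medians removed the fall under control siRNA was -0.21, adjusted p = 0.0483. These data hold transcripts only, and protein was not measured in the files used here.

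The prolyl hydroxylase genes went separate ways. Egln3 (chromosome 12) read 405, 383 and 395 CPM in sgCTRL_siCTRL, 439, 468 and 457 in sgCTRL_siFEM1B, 257, 284 and 274 in sgBACH1_siCTRL and 252, 294 and 250.4 in sgBACH1_siFEM1B. The groups did not overlap between genotypes under either siRNA, and it was lower in knockout cells by 0.54 (SE 0.060, adjusted p = 3.32e-07) under control siRNA and by 0.77 (SE 0.060, adjusted p = 1.92e-09) under FEM1B siRNA. Once chromosome medians were removed, the former was -0.26, adjusted p = 0.00143. Egln3 rose by 0.20 with FEM1B siRNA in control cells (SE 0.060, adjusted p = 0.00843). Egln1, which encodes the main HIF hydroxylase of most cells, rose by 0.35 in knockout cells under control siRNA (adjusted p = 0.00465) and by 0.34 with FEM1B siRNA in control cells (adjusted p = 0.00729). Per exon length Egln3 stood at 148 and Egln1 at 106 RPKM in sgCTRL_siCTRL, and at 99.8 and 126 RPKM in sgBACH1_siFEM1B.

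Among secreted factors, Vegfa, the main ligand of vessel growth, was higher in knockout cells under control siRNA and with FEM1B siRNA in control cells. It measured 545, 581 and 561 CPM in sgCTRL_siCTRL, 681, 816 and 835 in sgCTRL_siFEM1B, 819, 805 and 851 in sgBACH1_siCTRL and 738, 955 and 739 in sgBACH1_siFEM1B. All knockout libraries and all FEM1B siRNA libraries lay above the 3 unchanged ones, while the knockout libraries with and without FEM1B siRNA overlapped. Its log2 fold change was 0.55 (SE 0.084, adjusted p = 1.53e-05) for the knockout under control siRNA, 0.47 (SE 0.084, adjusted p = 0.000138) for FEM1B siRNA in control cells and -0.03 (SE 0.083, adjusted p = 0.835) in knockout cells. Pgf, a related vessel growth ligand, measured 92.7, 81.4 and 67.4 CPM in sgCTRL_siCTRL, 82.8, 153 and 182 in sgCTRL_siFEM1B, 101, 92.8 and 104 in sgBACH1_siCTRL and 49.9, 107 and 47.2 in sgBACH1_siFEM1B. In control cells it was 0.79 (SE 0.24, adjusted p = 0.0118) with FEM1B siRNA, although replicate 1 lay within the range of the control siRNA libraries, and in knockout cells the siRNA gave -0.55 (SE 0.25, adjusted p = 0.0821). Under FEM1B siRNA the genotypes differed by -1.03 (SE 0.25, adjusted p = 0.00146). Adm, which encodes the vasodilator peptide adrenomedullin, read 26.8, 21.5 and 22.2 CPM in sgCTRL_siCTRL, 35.3, 44.3 and 52.8 in sgCTRL_siFEM1B, 63.9, 58.9 and 63.4 in sgBACH1_siCTRL and 33.7, 92.7 and 35.9 in sgBACH1_siFEM1B. It rose by 1.40 in knockout cells under control siRNA (SE 0.25, adjusted p = 0.000117) and by 0.90 with FEM1B siRNA in control cells (SE 0.26, adjusted p = 0.00718). The rise in control cells was lost for Pgf without replicate 3 of sgCTRL_siCTRL or without replicate 3 of sgCTRL_siFEM1B (0.56 to 1.05 over all single omissions, adjusted p up to 0.0706).

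Among genes of collagen modification and disulfide formation, Plod2 was higher in knockout cells and Ero1l was raised by FEM1B siRNA in control cells. Plod2 (chromosome 9), a collagen lysyl hydroxylase, read 93.4, 89.6 and 95.2 CPM in sgCTRL_siCTRL, 111, 126 and 128 in sgCTRL_siFEM1B, 199, 191 and 202 in sgBACH1_siCTRL and 161, 206 and 157 in sgBACH1_siFEM1B. It was higher in every knockout library than in any control library, by 1.09 under control siRNA (SE 0.081, adjusted p = 8.89e-10) and by 0.52 under FEM1B siRNA (SE 0.081, adjusted p = 1.79e-05). The latter was 0.23, adjusted p = 0.0222, with chromosome medians removed. FEM1B siRNA gave 0.39 (SE 0.082, adjusted p = 0.000607) in control and -0.18 (SE 0.079, adjusted p = 0.0818) in knockout cells. Ero1l, named Ero1a in RefSeq, encodes the oxidase that drives disulfide formation in the endoplasmic reticulum. It read 888, 1067 and 832 CPM in sgCTRL_siCTRL, 1156, 1512 and 1689 in sgCTRL_siFEM1B, 1106, 959 and 1111 in sgBACH1_siCTRL and 536, 1045 and 542 in sgBACH1_siFEM1B. All 3 FEM1B siRNA libraries of control cells lay above the control siRNA ones, and in knockout cells replicates 1 and 3 lay far below while replicate 2 did not. The siRNA gave 0.64 (SE 0.18, adjusted p = 0.00606) in control and -0.58 (SE 0.18, adjusted p = 0.0131) in knockout cells, and under FEM1B siRNA the genotypes differed by -1.04 (SE 0.18, adjusted p = 6.84e-05).

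The subunit genes of collagen prolyl hydroxylase differed from each other. P4ha1 read 228, 247 and 223 CPM in sgCTRL_siCTRL, 192, 207 and 205 in sgCTRL_siFEM1B, 246, 239.8 and 220.2 in sgBACH1_siCTRL and 174, 211 and 165 in sgBACH1_siFEM1B, and it fell with FEM1B siRNA by 0.21 in control cells (SE 0.073, adjusted p = 0.0246) and by 0.36 in knockout cells (SE 0.073, adjusted p = 0.000539). P4ha2 read 135, 131 and 132 CPM in sgCTRL_siCTRL, 135, 164 and 176 in sgCTRL_siFEM1B, 146, 151 and 142 in sgBACH1_siCTRL and 111, 152 and 112 in sgBACH1_siFEM1B. For P4ha2 the siRNA gave 0.26 (SE 0.097, adjusted p = 0.0376) in control and -0.23 (SE 0.098, adjusted p = 0.0707) in knockout cells, and under FEM1B siRNA the genotypes differed by -0.34 (SE 0.098, adjusted p = 0.00588). Levels per exon length in sgCTRL_siCTRL were 56.6 RPKM for P4ha1 and 21.2 RPKM for P4ha2. Calls in these enzyme genes were lost for Ero1l without either of replicates 1 and 3 of sgBACH1_siFEM1B (-0.97 to -0.42 over all single omissions, adjusted p up to 0.0874), for P4ha1 without replicate 2 of sgCTRL_siCTRL or without replicate 1 of sgCTRL_siFEM1B (-0.24 to -0.16 over all single omissions, adjusted p up to 0.12) and, in control cells, for P4ha2 without any replicate of sgCTRL_siCTRL or without either of replicates 2 and 3 of sgCTRL_siFEM1B (0.19 to 0.36 over all single omissions, adjusted p up to 0.138). With chromosome medians removed P4ha2 stood at 0.23, adjusted p = 0.0573, in control cells, and -0.28, adjusted p = 0.029, in knockout cells, so that the call moved from the former to the latter.

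Of the HIF targets that act on mitochondria, Pdk1 fell and Bnip3 rose with FEM1B siRNA in both genotypes. Pdk1, a kinase that turns off pyruvate dehydrogenase, read 336, 303 and 335 CPM in sgCTRL_siCTRL, 228, 260.2 and 221 in sgCTRL_siFEM1B, 361, 365 and 369 in sgBACH1_siCTRL and 250.4, 293 and 243 in sgBACH1_siFEM1B. Its siRNA libraries lay below the control siRNA libraries in each genotype without overlap, at -0.46 (SE 0.070, adjusted p = 2.66e-05) in control and -0.48 (SE 0.070, adjusted p = 1.85e-05) in knockout cells. Bnip3, a receptor for the removal of mitochondria, read 281, 244 and 259 CPM in sgCTRL_siCTRL, 329, 369.8 and 375 in sgCTRL_siFEM1B, 315, 358 and 326 in sgBACH1_siCTRL and 373, 459 and 387 in sgBACH1_siFEM1B. It rose with the siRNA by 0.45 in control cells (SE 0.075, adjusted p = 6.27e-05) and by 0.28 in knockout cells (SE 0.075, adjusted p = 0.00458), and with the knockout by 0.35 under control siRNA (SE 0.075, adjusted p = 0.000635). Its paralog Bnip3l (chromosome 14) ranged from 124 to 185 CPM and was higher in knockout cells by 0.29 and 0.24 under control and FEM1B siRNA (adjusted p = 0.004 and 0.011). With chromosome medians removed these were 0.04, adjusted p = 0.666, and 1e-04, neither called. Higd1a (chromosome 9), a small mitochondrial protein gene, read 63.0, 49.4 and 54.7 CPM in sgCTRL_siCTRL, 69.5, 75.0 and 97.7 in sgCTRL_siFEM1B, 90.5, 98.3 and 96.5 in sgBACH1_siCTRL and 77.3, 110.0 and 83.9 in sgBACH1_siFEM1B. It was higher by 0.77 in knockout cells under control siRNA (SE 0.12, adjusted p = 2.34e-05), and FEM1B siRNA gave 0.53 (SE 0.12, adjusted p = 0.00135) in control and -0.07 (SE 0.12, adjusted p = 0.648) in knockout cells. The rise with the knockout was 0.50, adjusted p = 0.00224, with chromosome medians removed. The knockout call of Pdk1 under control siRNA (0.17 (SE 0.069, adjusted p = 0.0488)) and that of Bnip3 under FEM1B siRNA (0.18 (SE 0.075, adjusted p = 0.0459)) were unstable. Genotype calls were lost for Pdk1 without any 1 of the 6 libraries (0.12 to 0.19 over all single omissions, adjusted p up to 0.21), although with chromosome medians removed it was 0.30, adjusted p = 0.00155, and under FEM1B siRNA for Bnip3 without either of replicates 1 and 2 of sgCTRL_siFEM1B or without replicate 2 of sgBACH1_siFEM1B (0.09 to 0.24 over all single omissions, adjusted p up to 0.311), with chromosome medians removed (Bnip3, 0.10, adjusted p = 0.289), and for Bnip3l without replicate 1 of sgCTRL_siFEM1B or without replicate 2 of sgBACH1_siFEM1B (0.11 to 0.31 over all single omissions, adjusted p up to 0.117). Words of 50 bases shared with transcripts of other genes made up 47.2% of Bnip3, 24.4% of Higd1a and 20.8% of Bnip3l, so their counts are uncertain.

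The remaining HIF targets act in growth control and chromatin. Ndrg1, a stress-induced differentiation gene, read 396, 376 and 384 CPM in sgCTRL_siCTRL, 542, 635 and 662 in sgCTRL_siFEM1B, 305, 313 and 301 in sgBACH1_siCTRL and 229, 347 and 244 in sgBACH1_siFEM1B. Control cells had more of it than knockout cells in every library of either siRNA, and the distance grew from -0.33 (SE 0.10, adjusted p = 0.0112) to -1.16 (SE 0.10, adjusted p = 1.46e-08). With chromosome medians removed the smaller of these was -0.18 (adjusted p = 0.173). FEM1B siRNA gave 0.67 (SE 0.10, adjusted p = 2.93e-05) in control and -0.16 (SE 0.10, adjusted p = 0.215) in knockout cells. Mxi1 (chromosome 19), an antagonist of MYC, read 162, 164 and 153 CPM in sgCTRL_siCTRL, 212, 230.0 and 248 in sgCTRL_siFEM1B, 177, 173 and 175 in sgBACH1_siCTRL and 186, 221 and 170.2 in sgBACH1_siFEM1B. For Mxi1 the siRNA gave 0.53 (SE 0.074, adjusted p = 1e-05) in control and 0.14 (SE 0.074, adjusted p = 0.143) in knockout cells, and the genotypes differed by -0.26 (SE 0.074, adjusted p = 0.00564) under FEM1B siRNA, or by -0.70, adjusted p = 1.73e-07, with chromosome medians removed. Ankrd37, an ankyrin repeat gene, read 29.7, 25.8 and 25.9 CPM in sgCTRL_siCTRL, 39.7, 50.2 and 66.2 in sgCTRL_siFEM1B, 47.9, 46.8 and 46.6 in sgBACH1_siCTRL and 40.0, 66.2 and 41.6 in sgBACH1_siFEM1B. It rose by 0.79 with the knockout (SE 0.16, adjusted p = 0.00043) and, with FEM1B siRNA, gave 0.93 (SE 0.16, adjusted p = 0.000107) in control and 0.06 (SE 0.16, adjusted p = 0.774) in knockout cells. Kdm3a, a histone demethylase gene, ranged from 112 to 168 CPM and rose by 0.41 with FEM1B siRNA in control cells (adjusted p = 0.000267) and by 0.20 with the knockout (adjusted p = 0.0364). Genotype calls were lost for Kdm3a without either of replicates 1 and 3 of sgCTRL_siCTRL or without either of replicates 1 and 3 of sgBACH1_siCTRL (0.15 to 0.28 over all single omissions, adjusted p up to 0.161) and for Mxi1 without replicate 3 of sgBACH1_siFEM1B (-0.37 to -0.18 over all single omissions, adjusted p up to 0.0518). Ankrd37 overlaps Lrp2bp and Ufsp2 on the other strand, with 17% of its words shared.

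Differences of the siRNA effects between genotypes (knockout minus control cells) were as follows, as log2 values. In HIF targets, Ero1l stood at -1.23 (SE 0.25, adjusted p = 0.00834), Ndrg1 at -0.83 (SE 0.15, adjusted p = 0.00269) and Plod2 at -0.57 (SE 0.11, adjusted p = 0.00681). Pgf stood at -1.33 (SE 0.34, adjusted p = 0.0286), Ankrd37 at -0.87 (SE 0.23, adjusted p = 0.0295) and Higd1a at -0.61 (SE 0.17, adjusted p = 0.0386). The smaller called differences were those of Vegfa at -0.49 (SE 0.12, adjusted p = 0.0187), P4ha2 at -0.48 (SE 0.14, adjusted p = 0.0433) and Mxi1 at -0.39 (SE 0.10, adjusted p = 0.0324). In glycolysis the called genes were Pgk1 at -0.62 (SE 0.13, adjusted p = 0.0103) and Aldoc at -0.47 (SE 0.12, adjusted p = 0.0289). In each of these genes the siRNA effect was more negative, or less positive, in knockout than in control cells. Omitting any of replicates 1 and 3 of sgBACH1_siCTRL, replicate 2 of sgCTRL_siFEM1B and replicates 1 and 3 of sgBACH1_siFEM1B ended the calls of Pgf, Ankrd37, Higd1a, Vegfa, P4ha2, Mxi1 and Aldoc, with values that over all single omissions spanned -1.82 to -1.12 for Pgf, -1.14 to -0.69 for Ankrd37, -0.77 to -0.48 for Higd1a, -0.63 to -0.43 for Vegfa, -0.65 to -0.40 for P4ha2, -0.50 to -0.31 for Mxi1 and -0.59 to -0.40 for Aldoc. Replicate 3 of sgCTRL_siCTRL also ended those of all but Vegfa, replicate 2 of that group those of Pgf, Ankrd37, Higd1a, P4ha2 and Aldoc, and its replicate 1 those of Mxi1 and P4ha2. Replicate 2 of sgBACH1_siCTRL ended those of Higd1a, P4ha2 and Aldoc, and replicate 3 of sgCTRL_siFEM1B those of Higd1a and P4ha2. Adjusted p-values in those omissions reached at most 0.132.

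**Figure D4:**
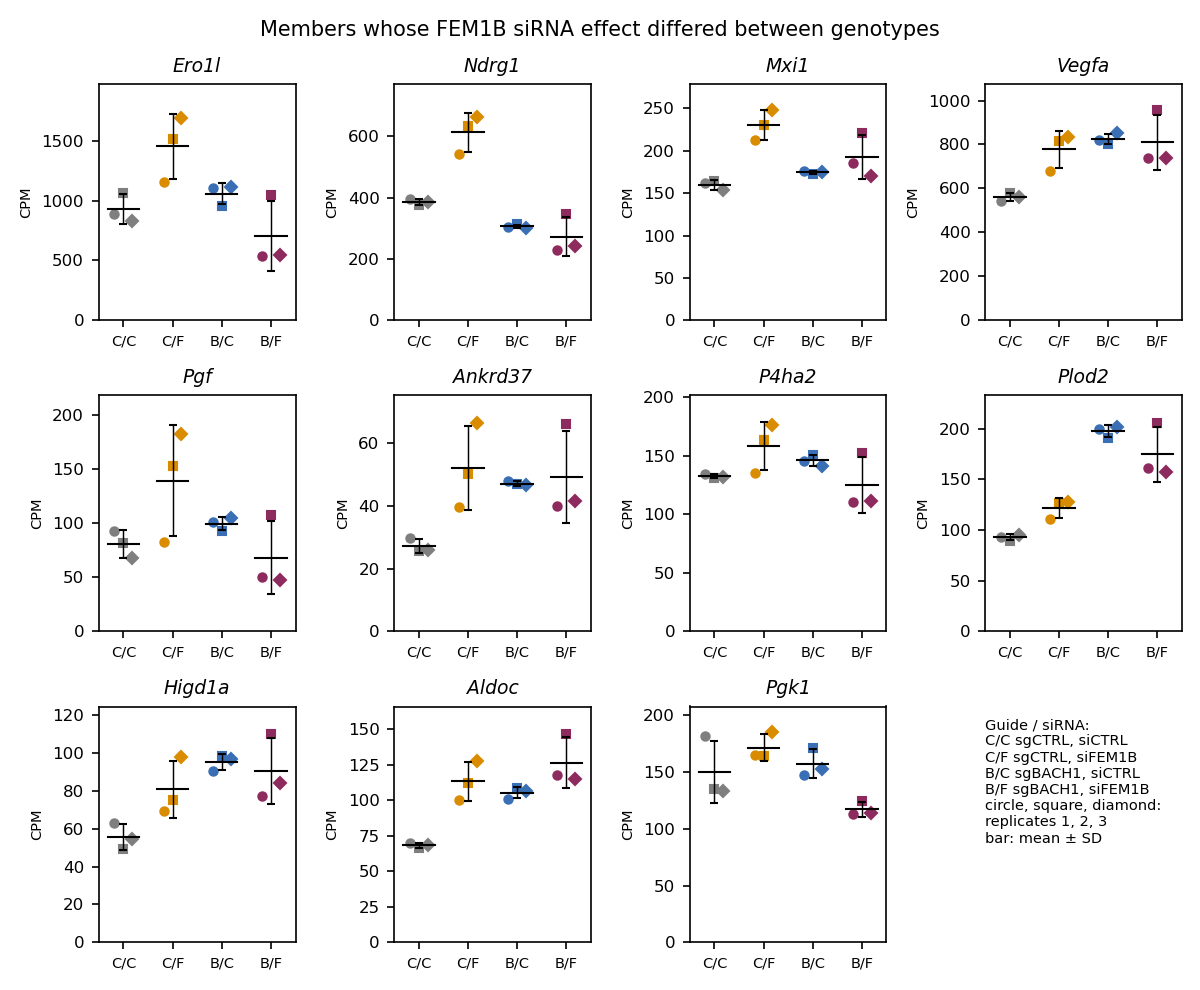
CPM in each library (vertical axes, from 0) for the 11 genes whose FEM1B siRNA effect differed between genotypes, by group (horizontal axes; guide then siRNA), with circles, squares and diamonds for replicates 1, 2 and 3 and bars for the mean ± SD of 3. For Ero1l the knockout libraries with FEM1B siRNA read 536, 1045 and 542 CPM, with the square of replicate 2 above the others in every panel.

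Glycolysis begins with glucose uptake, and Slc2a1, the main glucose transporter here, ranged from 315 to 505 CPM. It was lower by 0.33 in knockout than in control cells under FEM1B siRNA (adjusted p = 0.00621) and fell with the siRNA in knockout cells by 0.25 (adjusted p = 0.0435), a call lost for Slc2a1 without either of replicates 1 and 2 of sgBACH1_siCTRL or without either of replicates 1 and 3 of sgBACH1_siFEM1B (-0.40 to -0.17 over all single omissions, adjusted p up to 0.203). Slc2a3, the neuronal-type transporter, was near the detection limit, at 3, 2 and 5 counts in sgCTRL_siCTRL, 8, 17 and 12 in sgCTRL_siFEM1B, 15, 13 and 15 in sgBACH1_siCTRL and 46, 53 and 28 in sgBACH1_siFEM1B. These are raw counts not scaled to depth, and their order over the groups is not read as a result, for the reason that follows. No library of sgCTRL_siCTRL reached the minimum count of 10, so it passed the filter only through groups where it is high, and no test against control cells or against that group is given for it. The glycolysis counts given above for the genotype and siRNA comparisons and for the difference include Slc2a3, as do those with libraries left out. Without it the glycolysis genes higher and lower were 10 and 3 with the knockout under control siRNA (median 0.20), 3 and 6 under FEM1B siRNA, and 6 and 1 with the siRNA in control cells. In the difference of the siRNA effects, 2 of the remaining 20 were called lower and none higher (median -0.20). Between the knockout groups, where all 6 libraries held more than 10 counts, the siRNA gave 1.67 (SE 0.33, adjusted p = 0.000418). Per exon length it stood at 0.0221 to 0.312 RPKM, against 100.2 to 126 RPKM for Slc2a1.

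Hexokinases trap glucose in the cell. Hk1 read 353, 355 and 366 CPM in sgCTRL_siCTRL, 453, 431 and 444 in sgCTRL_siFEM1B, 457, 449.8 and 425 in sgBACH1_siCTRL and 443, 487 and 466 in sgBACH1_siFEM1B. All other groups lay above sgCTRL_siCTRL, and it rose by 0.31 with the knockout under control siRNA (SE 0.050, adjusted p = 3.43e-05) and by 0.31 with FEM1B siRNA in control cells (SE 0.050, adjusted p = 5.45e-05). Hk2, the inducible isoform, read 127, 124 and 129 CPM in sgCTRL_siCTRL, 119, 126 and 132 in sgCTRL_siFEM1B, 124, 118 and 117 in sgBACH1_siCTRL and 86.5, 108 and 84.6 in sgBACH1_siFEM1B. The sgBACH1_siFEM1B libraries lay below those of the other groups without overlap, at -0.43 (SE 0.074, adjusted p = 5.66e-05) against control cells with the same siRNA and -0.36 (SE 0.074, adjusted p = 0.000627) against knockout cells with control siRNA; the knockout under control siRNA was not called (adjusted p = 0.353). Mean levels in sgCTRL_siCTRL were 42.0 RPKM for Hk1 and 21.2 for Hk2. Gpi1, the next enzyme, read 563, 531 and 516 CPM in sgCTRL_siCTRL, 621, 675 and 756 in sgCTRL_siFEM1B, 583, 565 and 542 in sgBACH1_siCTRL and 589, 671 and 599 in sgBACH1_siFEM1B, and rose by 0.35 with FEM1B siRNA in control cells (SE 0.066, adjusted p = 0.000233).

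Of the phosphofructokinase subunits, which catalyse the committed step, Pfkl and Pfkm changed in opposite directions. Pfkl read 331, 319 and 323 CPM in sgCTRL_siCTRL, 258, 275 and 257 in sgCTRL_siFEM1B, 394, 412 and 388 in sgBACH1_siCTRL and 300.3, 325 and 308 in sgBACH1_siFEM1B. It was higher in knockout cells by 0.30 and 0.24 under control and FEM1B siRNA (adjusted p = 4.97e-05 and 0.000395), and lower with the siRNA by 0.30 and 0.35 in control and knockout cells (adjusted p = 5.96e-05 and 1.1e-05). Pfkm read 221, 217 and 219 CPM in sgCTRL_siCTRL, 256, 253 and 251 in sgCTRL_siFEM1B, 149, 139.9 and 145 in sgBACH1_siCTRL and 152, 169 and 158 in sgBACH1_siFEM1B. Its knockout libraries all lay below its control libraries, by 0.60 (SE 0.051, adjusted p = 5.72e-09) and 0.66 (SE 0.051, adjusted p = 1.38e-09), and the siRNA raised it by 0.21 (adjusted p = 0.00211) in control and by 0.14 (adjusted p = 0.0283) in knockout cells. Mean levels per exon length in sgCTRL_siCTRL were 65.6 RPKM for Pfkm, 48.6 for Pfkl and 25.5 for Pfkp. In sgBACH1_siCTRL they were 43.3, 59.6 and 23.1. The order of the subunits depends on the exon lengths used, 3340 bases for Pfkm, 6675 for Pfkl and 13401 for Pfkp. By mean CPM Pfkl lay above Pfkm in every group. In sgCTRL_siCTRL Pfkp stood at 341 CPM, Pfkl at 324 and Pfkm at 219. Pfkp, the platelet-type subunit, ranged from 299.7 to 366 CPM and was lower in knockout cells by 0.14 and 0.17 under control and FEM1B siRNA (adjusted p = 0.0259 and 0.00822). Pfkfb3, which makes the activator of phosphofructokinase, ranged from 7.76 to 12.0 CPM and was called in no comparison. Calls were lost for Pfkp without either of replicates 2 and 3 of sgCTRL_siCTRL or without either of replicates 1 and 3 of sgBACH1_siCTRL (-0.17 to -0.12 over all single omissions, adjusted p up to 0.114) under control siRNA, and, for the siRNA in knockout cells, for Pfkm without either of replicates 2 and 3 of sgBACH1_siCTRL or without either of replicates 2 and 3 of sgBACH1_siFEM1B (0.10 to 0.18 over all single omissions, adjusted p up to 0.145). With chromosome medians removed Pfkp stood at -0.11, adjusted p = 0.074, under control siRNA, and Pfkm at 0.08, adjusted p = 0.21, for the siRNA in knockout cells, while the higher levels of Pfkl in knockout cells were 0.19, adjusted p = 0.00349, and 0.13, adjusted p = 0.0342.

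Aldolase, triose phosphate isomerase and glyceraldehyde phosphate dehydrogenase follow. Aldoc read 69.8, 66.1 and 68.5 CPM in sgCTRL_siCTRL, 100.2, 112 and 128 in sgCTRL_siFEM1B, 101, 108 and 107 in sgBACH1_siCTRL and 118, 147 and 115 in sgBACH1_siFEM1B. Every library with either change lay above the unchanged ones, with 0.63 (SE 0.087, adjusted p = 5.38e-06) for the knockout, 0.73 (SE 0.087, adjusted p = 1.43e-06) for the siRNA in control cells and 0.26 (SE 0.085, adjusted p = 0.0181) for the siRNA in knockout cells. Aldoa, the muscle-type isoform, carried most of the message, at 928 RPKM in sgCTRL_siCTRL against 20.9 for Aldoc, and rose only with the siRNA in knockout cells, by 0.22 (adjusted p = 0.0265). Tpi1 ranged from 1365 to 1695 CPM and was higher by 0.16 in knockout cells under control siRNA (adjusted p = 0.0188). Gapdh read 71.9, 97.3 and 87.0 CPM in sgCTRL_siCTRL, 107, 143 and 211 in sgCTRL_siFEM1B, 176, 155 and 135 in sgBACH1_siCTRL and 172, 209.6 and 187 in sgBACH1_siFEM1B. The 3 unchanged libraries were the lowest, and Gapdh rose by 0.86 with the knockout (SE 0.16, adjusted p = 0.000179) and by 0.85 with the siRNA in control cells (SE 0.16, adjusted p = 0.00028). Its level of 20.7 RPKM beside 531 RPKM for Tpi1 is low for this enzyme, and 25.1% of its 50-base words occur in transcripts of 223 other genes, so its counts are uncertain. Calls were lost for Tpi1 without either of replicates 2 and 3 of sgCTRL_siCTRL or without replicate 2 of sgBACH1_siCTRL (0.11 to 0.21 over all single omissions, adjusted p up to 0.122), and for the siRNA in knockout cells for Aldoa without either of replicates 1 and 3 of sgBACH1_siCTRL or without replicate 2 of sgBACH1_siFEM1B (0.16 to 0.26 over all single omissions, adjusted p up to 0.142) and Aldoc without replicate 1 of sgBACH1_siCTRL or without replicate 2 of sgBACH1_siFEM1B (0.14 to 0.33 over all single omissions, adjusted p up to 0.148). Both were also lost with chromosome medians removed, at 0.17, adjusted p = 0.0848, for Aldoa and 0.21, adjusted p = 0.0523, for Aldoc.

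Further down the pathway, the kinase and mutase genes fell with FEM1B siRNA in knockout cells. Pgk1, which makes the first ATP of glycolysis, read 182, 135 and 133 CPM in sgCTRL_siCTRL, 165, 164 and 185 in sgCTRL_siFEM1B, 148, 171 and 152 in sgBACH1_siCTRL and 113, 125 and 114 in sgBACH1_siFEM1B. The sgBACH1_siFEM1B libraries lay below all others, at -0.42 (SE 0.093, adjusted p = 0.00108) against knockout cells with control siRNA and -0.55 (SE 0.093, adjusted p = 5.39e-05) against control cells with FEM1B siRNA, while the siRNA gave 0.19 (SE 0.092, adjusted p = 0.0968) in control cells. Pgam1 (chromosome 19) ranged from 164 to 282 CPM, rose by 0.50 in knockout cells under control siRNA (adjusted p = 0.000897; 0.06, adjusted p = 0.694, with chromosome medians removed) and fell by 0.28 with the siRNA there (adjusted p = 0.0481). Eno1 ranged from 596 to 817 CPM and was called in no comparison. Eno2, the neuronal enolase, ranged from 2.41 to 7.34 CPM and was higher in knockout cells by 0.96 under control siRNA (adjusted p = 0.000233) and 0.48 under FEM1B siRNA (adjusted p = 0.0208), and with the siRNA in control cells by 0.86 (adjusted p = 0.00096). Mean levels in sgCTRL_siCTRL were 117 RPKM for Eno1 and 0.591 for Eno2. Shared 50-base words made up 53.9% of Pgk1, 36.2% of Pgam1 and 26% of Eno1, so these counts are uncertain. Calls were lost for Pgam1 without either of replicates 2 and 3 of sgBACH1_siCTRL or without either of replicates 1 and 3 of sgBACH1_siFEM1B (-0.44 to -0.20 over all single omissions, adjusted p up to 0.206) and, between genotypes under FEM1B siRNA, for Eno2 without replicate 1 of sgCTRL_siFEM1B or without replicate 1 of sgBACH1_siFEM1B (0.33 to 0.62 over all single omissions, adjusted p up to 0.128), or with chromosome medians removed (Eno2, 0.41, adjusted p = 0.0503).

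Pyruvate kinase, lactate dehydrogenase and lactate export close the pathway. Pkm (chromosome 9) read 3185, 3027 and 3123 CPM in sgCTRL_siCTRL, 2751, 2910.4 and 2944 in sgCTRL_siFEM1B, 3783, 3891 and 3603 in sgBACH1_siCTRL and 3186, 3506 and 3183 in sgBACH1_siFEM1B. It was higher in knockout cells by 0.27 (adjusted p = 0.000201) and 0.20 (adjusted p = 0.0031) under control and FEM1B siRNA, but with chromosome medians removed these were -9e-04 and -0.09, neither called. Words of 50 bases shared with other genes made up 25.8% of Pkm, so its counts are uncertain. FEM1B siRNA lowered Pkm in knockout cells by 0.19 (SE 0.052, adjusted p = 0.00574). Ldha ranged from 1864 to 2492 CPM and was higher by 0.27 in knockout cells under control siRNA (adjusted p = 0.00166). Slc16a1, a lactate carrier, read 277, 283 and 268 CPM in sgCTRL_siCTRL, 270.1, 289 and 267 in sgCTRL_siFEM1B, 227, 241 and 239 in sgBACH1_siCTRL and 235, 226 and 226 in sgBACH1_siFEM1B. All knockout libraries lay below all control libraries, by 0.23 and 0.26 under control and FEM1B siRNA (adjusted p = 0.00075 and 0.000158), with -0.08 (adjusted p = 0.181) and -0.14 (adjusted p = 0.0286) once chromosome medians were removed. Slc16a3, the lactate exporter known as a HIF target, went the other way, with 0.30 (SE 0.062, adjusted p = 0.000366) in knockout cells under control siRNA and a range of 276 to 398 CPM. Levels in sgCTRL_siCTRL were 62.3 RPKM for Slc16a1 and 56.9 for Slc16a3.

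**Figure D5:**
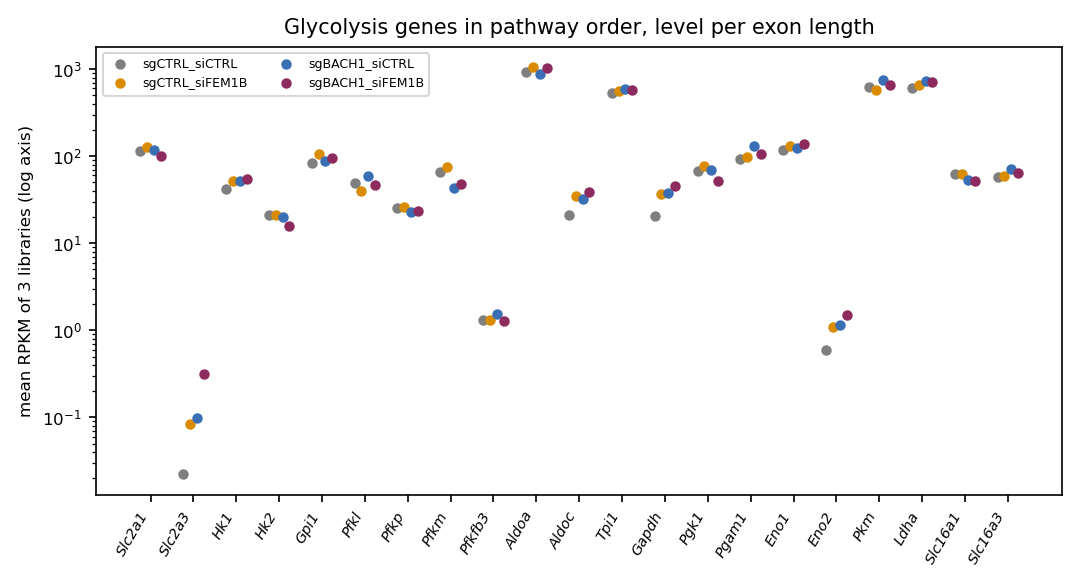
Mean RPKM of 3 libraries (vertical log axis; CPM divided by kilobases of exon) for the 21 glycolysis genes in pathway order (horizontal axis), with 1 colour for each of the 4 groups. Aldoa, Tpi1, Pkm and Ldha lie at 531 or above in every group, while Slc2a3 lies between 0.0221 and 0.312.

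Other genes of these pathways were counted from lists that the members are not in. These lists too were chosen with earlier results of these data known, so they are not an independent check. Car12, a further HIF target, was left out because no library of control cells reached 10 counts, as were Hif3a and Hkdc1 below, each with a group in which none did. Of 20 further HIF target genes, 11 rose and 2 fell with FEM1B siRNA in control cells (median 0.23), where 45% of all genes were called, and 3 rose and 4 fell in knockout cells (median -0.02), where 41.7% were. The difference of the effects was called lower in 4 and higher in none (median -0.23), against 6.08% of all genes. Named by the smallest p, those with a lower difference included Jmjd6 at -0.62 (SE 0.13, adjusted p = 0.00834), Bhlhe40 at -0.53 (SE 0.15, adjusted p = 0.0365) and Zfp395 at -0.32 (SE 0.085, adjusted p = 0.0307). Pfkfb4, a regulator of phosphofructokinase, rose with the siRNA by 0.96 (adjusted p = 6.08e-07) in control and by 0.57 (adjusted p = 0.00023) in knockout cells, and Errfi1 fell in both, by 0.37 and 0.34. In knockout cells 8 of the 20 were higher and 4 lower under control siRNA, and 4 higher and 8 lower under FEM1B siRNA, where 50.5% and 54.6% of all genes were called. Wsb1 was higher by 0.42 and 0.41 under control and FEM1B siRNA, and Insig2 was lower by 0.62 under FEM1B siRNA.

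Of 11 genes that regulate HIF, none was called in the difference of the siRNA effects, where 6.08% of all genes were called. With the siRNA 4 rose and 2 fell in control cells and 5 rose and 2 fell in knockout cells, where 45% and 41.7% of all genes were called. In knockout cells 3 were higher and 2 lower under control siRNA, and 2 higher and 2 lower under FEM1B siRNA, against 50.5% and 54.6% of all genes. Cited2, a competitor of HIF for its coactivators, was higher in knockout cells by 1.05 under control siRNA (SE 0.061, adjusted p = 2.06e-11) and 1.31 under FEM1B siRNA (SE 0.063, adjusted p = 1.11e-12), and fell by 0.47 with the siRNA in control cells (adjusted p = 5.94e-06). Hif1an, the asparagine hydroxylase of HIF, rose by 0.40 with the siRNA in control cells and by 0.29 with the knockout. Vhl, which recognises hydroxylated HIF, rose by 0.29 with the siRNA in control cells, and in knockout cells Tceb2 and Rbx1, subunits of its ligase, rose by 0.43 and 0.29. Tceb2 was also higher in knockout cells, by 0.30 and 0.49.

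Among 22 further genes of glycolysis and pyruvate use, none was called in the difference of the siRNA effects (median 0.06), where 6.08% of all genes were called. With the siRNA 5 rose and 6 fell in control cells and 5 rose and 5 fell in knockout cells, shares close to the 45% and 41.7% of all genes. Pdha1 and Dld, subunits of pyruvate dehydrogenase, fell with the siRNA in control cells by 0.30 and 0.31, and Pdp1, the phosphatase that turns that complex on, by 0.38. In knockout cells Pdha1 fell by 0.27 and Adpgk, an ADP-dependent glucokinase, by 0.51, while Bpgm rose by 0.52. Between genotypes 5 were higher and 4 lower under each siRNA, a smaller share than the 50.5% and 54.6% of all genes. Bpgm, which makes bisphosphoglycerate from a glycolytic intermediate, was lower in knockout cells by 1.19 and 0.85, Dld was lower by 0.34 and 0.27, and Pdhb was higher by 0.39 and 0.57.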

How the data were processed

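Stranded mRNA libraries were made from KP cells, per the labels' protocols, and the authors deposited the raw counts of 12 libraries (whole numbers, 1 row a gene symbol). Named in the submitters' processing notes, with no role for each, are featureCounts 1.6.4, Subread, DESeq2 1.26.0, SAMtools 1.9 and the build mm10. For annotation, strand setting and reads with several matches the entry is: not given in the sources used here. These bear on genes with pseudogenes or antisense partners. All 12 columns and 24421 symbols were read, mapped to samples by column name. No row lacked a gene name.

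The filterByExpr function of edgeR (minimum count 10) retained 13281 genes, all 39 members among them. Group means over all 12 libraries, scaled by TMM factors of 0.989 to 1.01, were fitted with edgeR 4.0.16 in R 4.3.3 (quasi-likelihood test, 8 residual degrees of freedom), with Benjamini-Hochberg adjustment over all genes tested and no fold minimum. The standard error is the absolute log2 fold change over the square root of F. The script was tested on simulated data. Replicate pairs gave a chi-square of 2.50 to 13.5 per degree of freedom and none was identical, which does not show that they came from separate cultures. Each library was counted as 1 sample. Nothing in the labels beyond the word biological says how replicates were separated, so p-values measure the spread between these libraries. Depth sets a floor near 0.06 CPM for 1 count, so among the members precision from counting is limiting for Slc2a3 and Eno2.

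RPKM used exon lengths of GENCODE M21, and coordinates are on GRCm38. These lengths join the exons of all annotated transcripts of a gene, so RPKM compares different genes only roughly. Shared sequence was counted as 50-base words of a gene's transcripts found in those of other genes. Alternatives were DESeq2 size factors, no count filter, a replicate block, the DESeq2 1.42.0 Wald test, only the 6 libraries compared, chromosome medians removed, and each library left out. The members and lists were chosen with earlier results of these data known. The rule for naming gave values in every library to Hif1a, to up to 5 members of each list per comparison with the smallest p among those called and to every member called in the difference of the siRNA effects; other lists gave up to 3 genes. A gene named by that rule and part of the line's genotype are not reported here.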

Additional observations from a re-analysis of the deposited data

Results flagged for a closer look

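The 11 genes below were picked out because the FEM1B siRNA effect differed between knockout and control cells by the test of the difference itself (edgeR's quasi-likelihood test, adjusted p under 0.05), each with a lower effect in knockout cells. As log2 differences, knockout minus control cells, they were -1.23 for Ero1l (adjusted p = 0.00834), -0.83 for Ndrg1 (adjusted p = 0.00269), -0.39 for Mxi1 (adjusted p = 0.0324), -0.49 for Vegfa (adjusted p = 0.0187), -1.33 for Pgf (adjusted p = 0.0286), -0.87 for Ankrd37 (adjusted p = 0.0295), -0.48 for P4ha2 (adjusted p = 0.0433), -0.57 for Plod2 (adjusted p = 0.00681), -0.61 for Higd1a (adjusted p = 0.0386), -0.47 for Aldoc (adjusted p = 0.0289) and -0.62 for Pgk1 (adjusted p = 0.0103). Replicate 2 of sgBACH1_siFEM1B was the highest library of its group in all 11. Of these genes Ero1l, Ndrg1, Plod2 and Pgk1 kept the call without any single library. No gene of either list had a called difference in the other direction. The part of library differences and of sequence shared with other genes in these values was not tested.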

How the results depend on the processing

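Leaving out single libraries gave these ranges. For the difference of the siRNA effects, 3 to 14 HIF targets, 1 to 7 glycolysis genes and 297 to 1859 of all genes were called. For FEM1B siRNA in knockout cells, 1 to 2 HIF targets rose and 2 to 10 fell (median -0.251 to -0.0233), and 1 to 4 glycolysis genes rose. In control cells 1 to 2 HIF targets fell and 7 to 11 glycolysis genes rose. Between genotypes under FEM1B siRNA, 1 to 4 HIF targets were higher and 5 to 11 lower (median -0.247 to -0.0058), with 3 to 8 glycolysis genes higher. Of all genes, 4566 to 5326 were called for the siRNA in knockout cells and 5068 to 5685 in control cells. Between genotypes under FEM1B siRNA 6417 to 7293 were. The siRNA effect in knockout cells, not called in the full data, changed sign for Vegfa (-0.16 to 0.0378; 0.0378 and 0.0368 without replicates 1 and 3 of sgBACH1_siFEM1B), Higd1a (-0.241 to 0.0287; 0.0287 without its replicate 1) and Ankrd37 (-0.207 to 0.198; -0.207 without its replicate 2).

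Without the count filter the difference was called in 1393 genes and 7 glycolysis genes, FEM1B siRNA raised 11 and lowered 2 glycolysis genes in control cells and lowered 8 HIF targets in knockout cells, and 6 HIF targets were higher in knockout cells under FEM1B siRNA. Of all genes 33% were then called for the siRNA in control cells, 30.8% in knockout cells and 40.6% between genotypes under FEM1B siRNA. DESeq2 size factors and the DESeq2 Wald test each gave 4 glycolysis genes in the difference, and the Wald test 1 HIF target lower in knockout cells under control siRNA. Of all genes these called 6.1% and 8.5% in the difference, and the Wald test 49.7% in that genotype comparison. With only the 6 libraries compared, 5 HIF targets fell with the siRNA in knockout cells, where 44% of all genes were called. With chromosome medians removed, 1 glycolysis gene fell with the knockout under control siRNA (median 0.11), 2 were higher under FEM1B siRNA (median -0.0393) and 1 rose with the siRNA in knockout cells. In those comparisons 43.6%, 49.9% and 41.4% of all genes were called. Pkm turned to -9e-04 and -0.0923 under control and FEM1B siRNA and Hif1a to 0.0372 under FEM1B siRNA. Removing those medians also ended the knockout calls of Ndrg1, Bnip3l, Pfkp, Pgam1, Pkm and Slc16a1 under control siRNA, those of Hif1a, Bnip3, Bnip3l, Eno2 and Pkm under FEM1B siRNA, and the siRNA calls of P4ha2 in control cells and of Pfkm, Aldoa and Aldoc in knockout cells. The Wald test ended those of Ndrg1 (knockout, control siRNA), Bnip3 (knockout, FEM1B siRNA), Pgf (siRNA, control cells), Ero1l, Slc2a1 and Pgam1 (siRNA, knockout cells) and of Pgf, Ankrd37 and Higd1a in the difference. Bnip3 in knockout cells under FEM1B siRNA was also lost with DESeq2 size factors and with the 6 libraries compared, Hif1a there with the latter, and Pfkm for the siRNA in knockout cells without the count filter and with the 6 libraries compared. The cause of these changes was not tested.

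With replicate numbers as a block, 603 genes were called in the difference (337 higher, 266 lower), and the calls of Pdk1 in knockout cells under control siRNA, Hif1a under FEM1B siRNA, Pgam1 for the siRNA in knockout cells and Higd1a in the difference ended. Deviations of same-numbered samples correlated at -0.115 to 0.079 and not every sample correlated best with its own number. Each deviation is from a mean of only 3 libraries, so these values cannot exclude shared handling of same-numbered samples. The labels state no pairing.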
